A study of Mus musculus with 5 samples.

Results

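The epithelial membrane proteins Emp1, Emp2 and Emp3 and their relative peripheral myelin protein Pmp22 were followed in mouse gliomas with mutant or wild-type IDH1. The 4 genes were chosen by symbol in the array's annotation, which gives them 6 of the 45281 probes, and all 4 were among the 16917 genes tested. The probe with the highest mean signal over the 5 arrays gives a gene's main value, and every other probe is shown beside it. The family was chosen with earlier results of these arrays known, and the lower Emp1 signal in mutant gliomas was one of them. The Emp1 difference is therefore given as a description with no test.

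Whole-tumour RNA of 5 gliomas was measured on Illumina BeadArrays, 3 labelled mutIDH1 and 2 labelled wtIDH1. Both groups arose in Ntva_Ink4a/Arf-/- mice of mixed FVB/N, C57BL6, BALB/C and 129 background, so loss of the Ink4a/Arf tumour suppressor locus is shared by all samples. In the RCAS/tva system, DF1 chicken fibroblasts injected into the mice release viruses that enter only cells bearing the tva receptor. All mice received PDGFa-producing DF1 cells together with shp53 cells, and the groups differ in whether the shp53 virus also carried mutant IDH1 (muIDH1) or wild-type IDH1 (wtIDH1). No treatment was given, tumours were taken when the mice became ill, and no ages are given in the labels. The labels give every sample a different tumour code but do not say how many mice were used, so p-values measure only the spread between these samples. The wtIDH1 gliomas differed more from each other (SD over genes of their log2 difference 0.40) than the mutIDH1 gliomas did (0.18 to 0.26). Markers of the glioma lineage were above the estimated background of 7.51 on the log2 scale on every array, with Olig2 at 8.53 or more and Pdgfra at 13.67 or more.

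EMP and PMP22 proteins are small glycoproteins that cross the membrane several times and share the fold of the claudins, the seal proteins of tight junctions. PMP22 is a component of compact myelin in peripheral nerve, where altered gene dosage causes Charcot-Marie-Tooth disease and pressure palsies in humans, and it was also found as a transcript of growth-arrested fibroblasts. EMP1 and EMP3 have been studied in human glioma, EMP1 as a gene of the mesenchymal expression state and EMP3 as a glycoprotein of CD44-high tumours, while EMP2 is known for its handling of integrins and caveolae in epithelium.

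The promoters of Emp1 and Emp3 are shown with that of Emp2. Emp1 and Emp3 lay lower in every mutIDH1 glioma than in either wtIDH1 glioma, though Emp3 did not pass the test. The groups overlapped for Emp2. Each sequence is the 250 bases before the first start in the RefSeq promoter table of assembly GRCm38.p6, read 5′ to 3′ on the gene's strand, chr6:135362681-135362930 on the plus strand for Emp1, chr7:45921427-45921676 on the minus strand for Emp3 and chr16:10313969-10314218 on the minus strand for Emp2. Capitals mark matches on either strand to TGANTCA (a loose AP-1 motif, with any middle base) or ACGTG (the core of the hypoxia response element). They also mark, on either strand, GGGCGG (the GC box) and TATAAA (the TATA box).
Emp1: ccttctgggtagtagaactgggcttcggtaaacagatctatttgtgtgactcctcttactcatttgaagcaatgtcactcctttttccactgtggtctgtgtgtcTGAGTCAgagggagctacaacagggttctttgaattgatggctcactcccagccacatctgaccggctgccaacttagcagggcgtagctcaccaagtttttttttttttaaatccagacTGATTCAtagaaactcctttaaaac
Emp3: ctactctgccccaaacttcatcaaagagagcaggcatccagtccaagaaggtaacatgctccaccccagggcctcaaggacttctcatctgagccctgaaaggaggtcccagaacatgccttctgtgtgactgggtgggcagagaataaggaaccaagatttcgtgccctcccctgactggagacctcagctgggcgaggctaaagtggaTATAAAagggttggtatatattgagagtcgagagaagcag
Emp2: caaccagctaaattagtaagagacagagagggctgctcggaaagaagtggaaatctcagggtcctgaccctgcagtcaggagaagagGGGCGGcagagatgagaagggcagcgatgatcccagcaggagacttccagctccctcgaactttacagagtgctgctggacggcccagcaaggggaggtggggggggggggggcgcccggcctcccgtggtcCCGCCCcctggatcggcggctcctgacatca

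Emp1 held 2 matches to the loose AP-1 motif, TGAGTCA beginning 145 and TGATTCA beginning 25 bases before the start. Of 32851 RefSeq windows of this length, 6.75% hold at least 1 match to the loose motif. Emp3 held 1 TATA box, beginning 40 bases before the start (12.4% of windows), and Emp2 held 2 GC boxes, beginning 163 and 31 bases before it (32.7% of windows). The hypoxia core, found in 16.6% of windows, was in none of the 9 windows of the 4 genes. The Emp1 and Emp3 windows each held 3 CpG dinucleotides and the Emp2 window 11, against a median of 6 over all windows. Pmp22 has 4 RefSeq starts, whose windows held 3, 14, 14 and 27 CpGs; which start the transcripts in these tumours came from cannot be read from the probes. The second starts of Emp1 and Emp3 held no match to these motifs, with 3 and 1 CpGs. These matches describe the letters of the windows only.

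Emp1 was lower in every mutIDH1 glioma than in either wtIDH1 glioma, and its groups lay farthest apart in the family. Its single probe (ILMN_2642913) read 11.03, 10.79 and 10.80 in mutIDH1 samples 1, 2 and 3, and 12.46 and 12.37 in wtIDH1 samples 1 and 2, on the log2 scale. The gap of 1.34 between the highest mutIDH1 and the lowest wtIDH1 value was larger than the range within the mutIDH1 group (0.24) and the difference between the wtIDH1 samples (0.091). The means were 10.87 ± 0.13 (SD, n = 3) and 12.41 ± 0.06 (SD, n = 2), a difference of −1.54 ± 0.10 (log2, SE), or 2.91-fold lower signal in mutIDH1. Of the 16917 genes, 46 had a more negative difference. The deposited values were not background-subtracted to 0, which compresses differences towards 0.

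Emp3 also lay lower in all mutIDH1 gliomas, with a wider spread. Its main probe (ILMN_2984744) read 9.40, 9.84 and 10.09 in the mutIDH1 samples and 10.66 and 10.56 in the wtIDH1 samples. The groups did not overlap, but the gap between them, 0.47, was smaller than the range within mutIDH1 (0.69), where sample 1 was lowest. The difference was −0.83 ± 0.21 (95% interval −1.35 to −0.32), or 1.78-fold, and did not pass the threshold of 0.05 (limma adjusted p = 0.150 over all genes, unadjusted p = 0.00795). The second Emp3 probe (ILMN_1248028) read 8.21, 8.65 and 8.68 in mutIDH1 and 9.37 and 9.06 in wtIDH1, again with no overlap and with mutIDH1 sample 1 lowest. Its difference was −0.70 ± 0.17 (limma adjusted p = 0.186 over the 34885 named probes), so both probes of Emp3 gave the same direction.

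Emp1 and Emp3 ordered the mutIDH1 gliomas differently. Sample 1 had the highest Emp1 signal of the 3 and the lowest Emp3 signal, on both Emp3 probes. Relative to each gene's own mean over the 5 samples, Emp1 stood at −0.46 in that sample and Emp3 at −0.71, while in mutIDH1 sample 3 they stood at −0.69 and −0.02. In the wtIDH1 samples both were above their means, by 0.97 and 0.88 for Emp1 and by 0.55 and 0.45 for Emp3. On average over the 5 samples the centred profiles of Emp1 and Emp3 differed by 0.44, against 0.90 between Emp1 and Emp2 and 0.81 between Emp1 and Pmp22. Emp2 and Pmp22 were the closest pair (0.35), and Emp3 differed from Pmp22 by 0.53 and from Emp2 by 0.56.

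**Figure D1:**
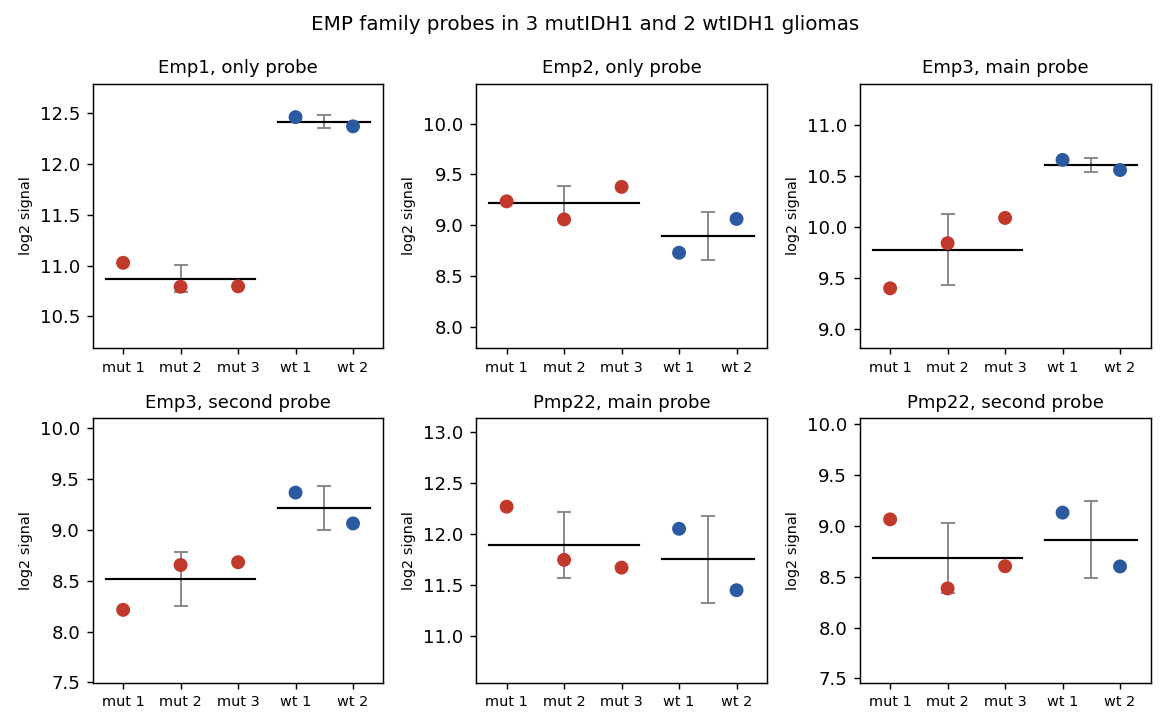
Log2 signal (vertical axes, all of equal span) of the 6 probes of the family in the 5 gliomas (horizontal axes); red points are mutIDH1, blue points wtIDH1, black lines the group means and grey bars the SD. Emp1 and both Emp3 probes sit lower in all mutIDH1 gliomas, Emp2 overlaps by 0.005, and both Pmp22 probes overlap.

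Emp2 did not share this direction. Its single probe (ILMN_2598103) read 9.24, 9.06 and 9.38 in the mutIDH1 samples and 8.73 and 9.06 in the wtIDH1 samples. The mutIDH1 mean was higher, 9.22 ± 0.16 (SD, n = 3) against 8.90 ± 0.23 (SD, n = 2), but mutIDH1 sample 2 and wtIDH1 sample 2 were nearly equal and the groups overlapped. The difference of 0.33 ± 0.14 did not pass (95% interval −0.03 to 0.68, limma adjusted p = 0.397). It was 0.16 without wtIDH1 sample 1, the glioma with the lowest Emp2 signal, and 0.49 without wtIDH1 sample 2. In wtIDH1 sample 1 the summed signals of the 10 neuron markers and the 8 astrocyte markers were also the lowest of the 5 (7457 against 12599 to 25749, and 17435 against 33652 to 47389 in the others, on the linear scale); their part in the Emp2 value was not tested.

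Pmp22 varied within the groups more than between them. Its main probe (ILMN_1228535) read 12.27, 11.75 and 11.67 in the mutIDH1 samples and 12.05 and 11.45 in the wtIDH1 samples, so sample 1 was highest in each group. The difference was 0.15 ± 0.25 (95% interval −0.49 to 0.78, limma adjusted p = 0.879), while the wtIDH1 samples were 0.60 apart. The second probe (ILMN_2661299) read 9.06, 8.38 and 8.60 in mutIDH1 and 9.13 and 8.60 in wtIDH1, a difference of −0.18 ± 0.24 (limma adjusted p = 0.862 over the named probes). The 2 probes thus gave opposite signs, both within the spread, and the sign of the main probe also turned without mutIDH1 sample 1 (−0.042) and without wtIDH1 sample 2 (−0.16). A change of Pmp22 as large as that of Emp1 lies outside its interval.

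Emp2, Emp3 and Pmp22 did not pass the threshold, which 1.35% of all genes tested passed in either direction and 0.899% passed with mutIDH1 lower. The groups did not overlap for 2 of 4 members, Emp1 and Emp3, both lower in mutIDH1; 30.6% of all genes had groups that did not overlap, and 14.0% had them with mutIDH1 lower. Because the family was chosen with this contrast known, nothing is read from these shares. Without mutIDH1 sample 2 or sample 3, 0 of the 16917 genes passed (limma; 1747 and 1849 at an unadjusted p under 0.05), while the Emp1 difference was −1.50 in both cases. In bulk tumour, fewer cells of a type that express a gene and less of its RNA per cell cannot be told apart.

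**Figure D2:**
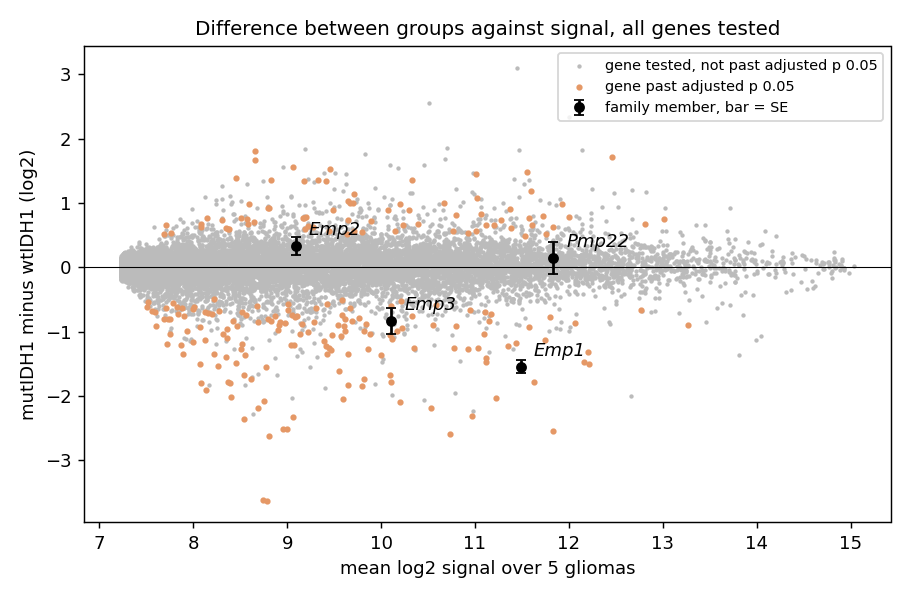
Difference between mutIDH1 and wtIDH1 (log2, vertical axis) against the mean log2 signal over the 5 gliomas (horizontal axis) for the 16917 genes tested, with the 228 genes past the threshold in orange and the 4 family members in black (bars are SE). Emp1 (−1.54) lies below most genes of its signal, Emp3 (−0.83) below the bulk, and Emp2 (0.33) and Pmp22 (0.15) above 0.

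The genes closest to Emp1 across the 5 gliomas were found by the mean absolute difference of log2 values, each centred on the gene's own mean. They were Col1a1, a chain of type I collagen (0.031), Ms4a6d, a macrophage membrane protein (0.073), Ctsk, the collagen-cleaving cathepsin K (0.082), Fstl1, a secreted glycoprotein (0.084), and Dlk1, a transmembrane protein of the Notch ligand family (0.086). Col1a1 read 7.80, 7.59 and 7.54 in the mutIDH1 samples and 9.27 and 9.09 in the wtIDH1 samples, so its profile kept within hundredths of a log2 unit of that of Emp1 on average. Its mutIDH1 values lay close to the estimated background of 7.51, where differences are compressed, unlike those of Emp1. The genes closest to Emp3 were S100a13 (0.065), BC028528 (0.070), S100a10, the partner of annexin A2 (0.091), Wwtr1, the transcriptional coactivator TAZ (0.094), and Cldn5, the claudin of the blood-brain barrier (0.094). Emp1 and Emp3 shared none of these 5. Emp2 and Pmp22 spanned less than 1 log2 unit and were not compared in this way. Likeness over 5 samples is a description and says nothing of shared function.

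**Figure D3:**
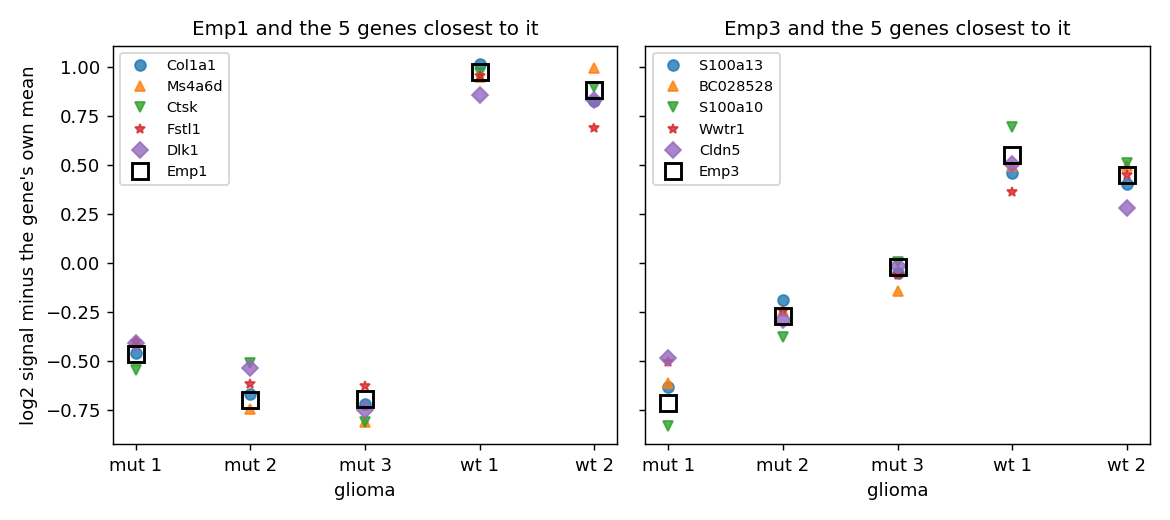
Log2 signal minus the gene's own mean (vertical axis) in the 5 gliomas (horizontal axis) for Emp1 (left) and Emp3 (right), as open squares, with the 5 genes closest to each. The Emp1 set falls into a low mutIDH1 group and a high wtIDH1 group, and the Emp3 set spreads from −0.71 in mutIDH1 sample 1 to −0.02 in mutIDH1 sample 3 for Emp3 itself. The genes were picked for closeness, so the shape of each set follows from the choice.

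No claudin-fold relative passed the test with all 5 gliomas. Of 13 genes of the claudin fold, 11 were measured and 0 passed by limma in either direction (1 at an unadjusted p under 0.05), with a median difference of 0.007 against 0.014 over all genes. Without wtIDH1 sample 2, 1 of the 11 passed. Cldn5, the smallest p of the list, stood at −0.65 ± 0.16 (limma adjusted p = 0.146), with 11.41, 11.61 and 11.88 in mutIDH1 and 12.40 and 12.18 in wtIDH1. Cldn1 (0.17), Perp (0.14) and Cldnd1 (0.25) had small positive differences. Cldn1 was under background in both wtIDH1 samples (7.39 and 7.39). Perp, a p53 target with a PMP22-like fold, was at or under background on every array, as were Nkg7 and Cldn3.

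Among genes reported as partners or chaperones of the family, 14 of 16 were measured and 0 passed by limma (3 at an unadjusted p under 0.05), with a median difference of 0.047. With trended and robust moderation 2 of the 14 passed. The count was 1 with normexp and quantile normalization, and 1 without the dimmest 40% of probes. It was 0 with cyclic loess, median centring, the Xist signal as a covariate or the sample number as a block. Cav1, the caveolin whose surface level EMP2 is reported to affect, stood at −1.32 ± 0.19, with 10.70, 10.33 and 10.83 in mutIDH1 and 11.72 and 12.15 in wtIDH1. Tgfbr2, a TGF-beta receptor that human EMP3 is reported to bind, stood at −0.67 ± 0.10. Both narrowly missed the threshold (limma adjusted p = 0.0509 each), and the mean of the 4 Tgfbr2 probes gave −0.24. The integrin subunits Itgb1 (−0.35 ± 0.11) and Itga6 (−0.21 ± 0.10) and the ATP receptor P2rx7 (0.08 ± 0.14) did not pass either. Itga6 was near background in the mutIDH1 samples (7.47, 7.55 and 7.32). Cd44, the hyaluronan receptor reported with EMP3, stood at 0.28 ± 0.21 on the brightest of its 9 probes. Its groups overlapped (limma adjusted p = 0.659), so no direction is read from it.

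Myelin genes, the setting in which Pmp22 is best known, varied widely between samples. Of 11 measured genes 0 passed by limma, with 0 at an unadjusted p under 0.05 too. The list's mean centred signal was highest in mutIDH1 sample 1 (0.92) and lowest in wtIDH1 sample 1 (−0.78), the 2 samples in which Pmp22 was highest. Mag, a myelin adhesion protein, read 13.04 in mutIDH1 sample 1 and 9.97 in wtIDH1 sample 1.

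Of 30 mesenchymal glioma genes, 26 were measured, 4 fell and 0 rose, against 0.899% and 0.449% of all genes. Here and in the lists below, fell and rose in a count mean passing the threshold in that direction. At an unadjusted p under 0.05 in either direction (limma) there were 12. This list was chosen with earlier results of these data known, so nothing is read from its counts. The genes that fell, Tgfbi, Anxa2, Lgals3 and Lgals1, had differences between −2.03 and −0.90. The list's median was −0.19, and its summed linear signal ran from 44096 to 52272 in mutIDH1 and from 59902 to 70532 in wtIDH1. Vim, vimentin, had a positive difference (0.76 ± 0.12, limma adjusted p = 0.0644), unlike Emp1.

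Some markers of vessel, stromal and myeloid cells fell in mutIDH1 gliomas, and most did not pass the test. Over all genes, 0.899% fell and 0.449% rose. At an unadjusted p under 0.05 in either direction (limma) there were 11 endothelial, 9 mural, 8 myeloid and 2 neutrophil markers. The lists were chosen with earlier results of these data known, so nothing is read from these counts. Of 19 endothelial markers 4 fell and 0 rose (median −0.64), and their summed linear signal was 17272 to 20576 in mutIDH1 and 28570 to 28863 in wtIDH1. Slco1a4, Abcb1a and Erg were at background on every array. Kdr, a VEGF receptor, stayed near background (7.36 to 7.76 over all arrays), and its difference was 0.08 ± 0.13. Of 18 mural cell and fibroblast markers 4 fell and 0 rose (median −0.44), among them Col1a1, with summed signals of 26821 to 28525 and 29409 to 31979; Myh11, Cnn1 and Postn were at background. Pdgfra, which is also a precursor marker and differed by 0.37 ± 0.12, made up 44.3% to 70.3% of these sums, and without it they were 8465 to 9309 and 15660 to 16377, a comparison added after seeing the data. Of 13 measured monocyte, macrophage and microglia markers 4 fell and 0 rose (median −0.54, sums of 4635 to 5096 and 6760 to 9502, none at background on every array). The genes that fell, Plac8 (−1.37), Mrc1 (−1.35), F13a1 (−1.21) and Ms4a7 (−2.51), are genes of monocytes and macrophages. F13a1 was under background in mutIDH1 samples 2 and 3 (7.33 and 7.25), and Itgam stayed near background, at 7.33 to 7.55 over all arrays. The microglia genes Tmem119 (−0.16 ± 0.22), P2ry12 (0.12 ± 0.13), Cx3cr1 (−0.28 ± 0.21) and Sall1 (0.42 ± 0.10) did not pass. Of 9 measured neutrophil markers 2 fell and 0 rose (median −0.13, sums of 1505 to 1555 and 2235 to 2486), and Cxcr2, Elane and Ngp were at background. S100a9, which fell, was under background in all mutIDH1 samples (7.34, 7.34 and 7.37). Without S100a8, the brightest of the list, the sums were 1321 to 1333 and 1619 to 1674, also a comparison added after seeing the data. The part of these lists in the Emp1 and Emp3 values was not tested. Without mutIDH1 sample 2 or 3 none of the calls on these lists or on the mesenchymal list was made. With the Xist signal as a covariate the called genes numbered 1 for the mesenchymal, 0 for the endothelial, 2 for the mural, 2 for the myeloid and 1 for the neutrophil list, and without mutIDH1 sample 1 they numbered 1, 0, 1, 0 and 0.

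The epithelial, ependymal and choroid plexus list, whose cells give the EMP proteins their name, had a median near that of all genes. Of 10 measured markers 1 fell and 0 rose, against 0.899% and 0.449% of all genes. This list too was chosen with earlier results known, so nothing is read from its counts. The marker that fell was the water channel Aqp1 (−2.01 ± 0.26), with mutIDH1 values close to background (7.60, 7.46 and 7.72). Averaging its 3 probes gave −1.33 and a limma adjusted p of 0.0541. The median was 0.043, the keratins Krt8 and Krt19 were at background on every array, and the summed signal was 8111 to 10868 in mutIDH1 and 2967 to 7364 in wtIDH1. Ttr, transthyretin of the choroid plexus, made up 32.4% to 82.9% of that sum, which without it was 1739 to 1853 and 2006 to 2697. Of 8 astrocyte markers, 8 oligodendrocyte precursor markers, 10 neuron markers and 5 measured red blood cell markers, 0 passed by limma (2, 4, 0 and 3 at an unadjusted p under 0.05), with medians of 0.27, 0.14, 0.30 and −1.13. Leaving out each sample in turn gave medians of −0.20 to 1.31 for neuron, 0.015 to 0.72 for astrocyte, 0.11 to 0.23 for precursor and −1.51 to −0.74 for red blood cell markers. The lower end for neuron and astrocyte markers came without wtIDH1 sample 1 and the upper end without wtIDH1 sample 2, where 2 neuron and 3 astrocyte markers passed. Without wtIDH1 sample 1 the precursor median was 0.23 and 1 red blood cell marker passed, and the red blood cell median was −0.74 without mutIDH1 sample 2.

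**Figure D4:**
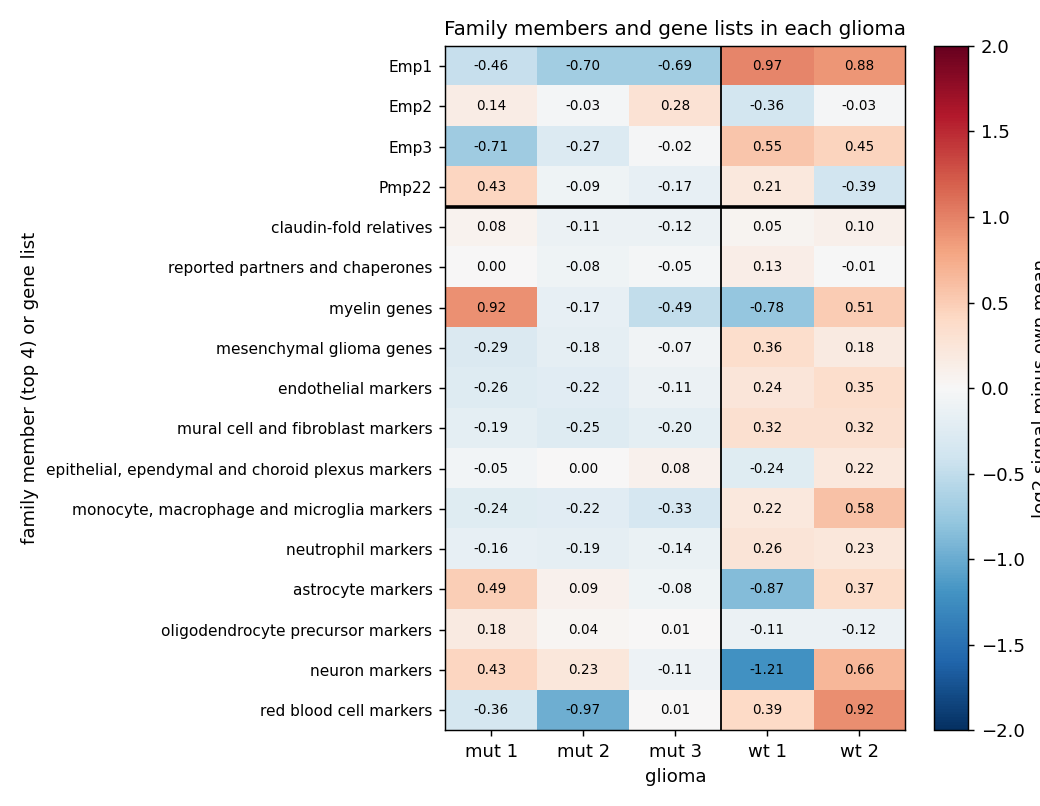
Log2 signal minus the own mean over the 5 gliomas for the 4 family members (top rows) and the mean of the same over the genes of each list (lower rows), by glioma (columns). Emp1 and Emp3 are below 0 in mutIDH1 and above 0 in wtIDH1, as are the mesenchymal, endothelial, mural, myeloid and neutrophil lists, while neuron and astrocyte markers are lowest in wtIDH1 sample 1.

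The signs of Emp1, Emp2 and Emp3 held under every alternative run. Emp1 stayed between −1.62 and −1.50, Emp3 between −0.99 and −0.64 and Emp2 between 0.16 and 0.49. Emp3 did not pass the threshold under any of them, with limma adjusted p from 0.0699 with trended and robust moderation to 0.428 with the sample number as a block.

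**Figure D5:**
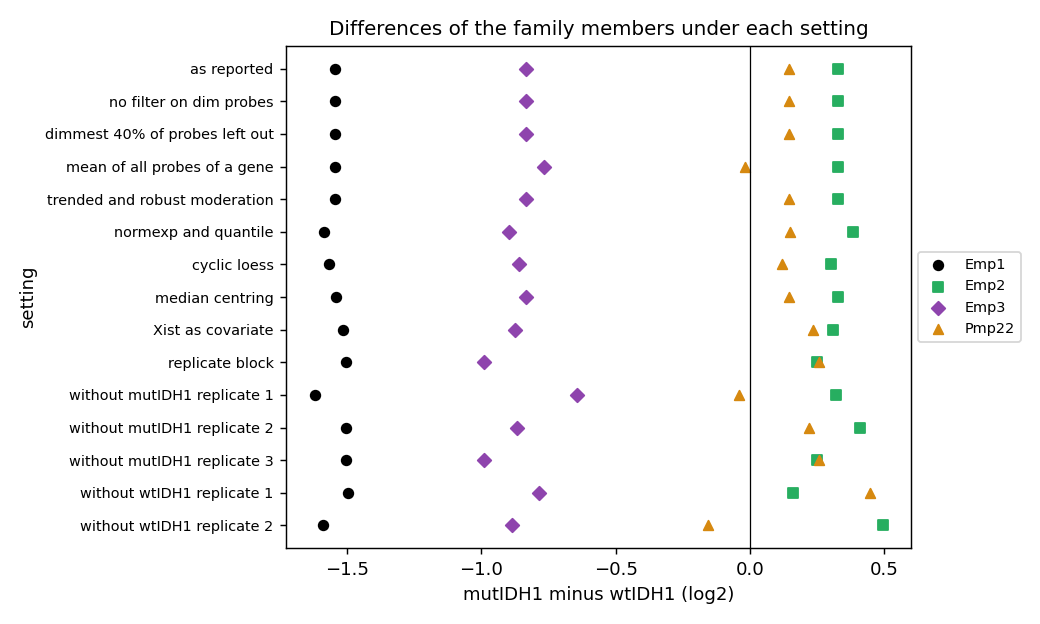
Difference between mutIDH1 and wtIDH1 (log2, horizontal axis) of the 4 family members as reported and under 14 alternative settings (vertical axis). Emp1 stays between −1.62 and −1.50, and Pmp22 changes sign in 3 settings.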

How the data were processed

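RNA of 5 gliomas was measured on Illumina BeadArrays. The authors deposited log2 signals for 45281 probes, made with limma per the submitters' processing notes. The sources used here name neither its steps nor its version. The values run from 6.91 to 15.06 with nearly identical distributions on the 5 arrays, as quantile normalization gives, and dim genes are compressed. A non-normalized table with 10 columns of per-sample values, whose names match no single sample, was not used.

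Probes were named through the platform annotation (34885 with 1 symbol, 18 with several), with symbols and promoters from RefSeq (GRCm38.p6). Without the dimmest 20% of probes (mean under 7.23), the brightest probe stood for each of 16917 genes. Background was set at 3 spreads (of 0.089, measured below the mode) above the mode of 7.24. The test was limma 3.58.1 in R 4.3.3 (lmFit, eBayes, 2-sided, group only, 3 residual and 2.50 prior degrees of freedom), with Benjamini-Hochberg adjustment over all genes at 0.05; a fit of all named probes gave the second probes. The small number of arrays limits precision.

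The members and lists were chosen with earlier results of these data known. Named genes were the members, list genes with the smallest p (up to 4; some lists are given by counts) and the 5 genes closest to each member spanning at least 1 log2 unit. Vim, Cd44, P2rx7, Mag and genes given as at background were added after their values were seen. Tested on simulated data of 16917 genes, the fit called 93 of 100 genes planted at a log2 change of 1 and 98 of 100 at 2, with 14 false calls; the real wtIDH1 samples differ more.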

Additional observations from a re-analysis of the deposited data

How the results depend on the processing

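Of 14 alternatives, Emp1, Emp2 and Emp3 kept their direction under all, and the calls of Emp2, Emp3 and Pmp22 (not past the threshold) did not change. Leaving out each sample in turn gave −1.62 to −1.50 for Emp1, 0.16 to 0.49 for Emp2, −0.99 to −0.64 for Emp3 and −0.16 to 0.45 for Pmp22. Pmp22 was −0.018 with the mean of its 2 probes, which have opposite signs. The number of genes called moved more: 228 genes (152 lower, 76 higher) became 363 (253 lower) with trended and robust moderation and 65 (54 lower, 11 higher) with the Xist signal as a covariate. Leaving out each sample gave 0 to 479 genes, 0 to 234 lower and 0 to 245 higher. It was 14 without mutIDH1 sample 1, 0 without sample 2 or 3 of that group, and 479 without wtIDH1 sample 2; the cause was not tested. The labels number samples in both groups, with no sign that a number marks a shared mouse or day, so the numbers were not taken as pairs. The deviations of same-numbered samples correlated at −0.26 and 0.11. With 2 wtIDH1 samples, their deviations mirror each other, so these correlations cannot decide whether the numbers mark pairs. Xist was high in sample 1 of both groups (10.42 in mutIDH1 and 10.44 in wtIDH1), as given below. With the sample number as a block, 1 residual degree of freedom remained and 0 genes were called by limma (1562 at an unadjusted p under 0.05), with Emp1 at −1.50, Emp2 at 0.25, Emp3 at −0.99 and Pmp22 at 0.26.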

Other observations

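Pmp22 separated the gliomas by another line than IDH1. The X-inactivation transcript Xist was above background in 2 samples, with 10.42 in the first mutIDH1 glioma and 10.44 in the first wtIDH1 glioma, while the other 3 read 7.13 to 7.33. In those 2 samples both Pmp22 probes were higher than in all others, by at least 0.31 on the main probe and 0.46 on the second. Over all genes tested, 8.42% were higher in both of these samples than in the other 3, and 24 of 16917 genes (0.142%), Xist and Pmp22 among them, had a gap at least as large as Pmp22. After Xist, the widest gaps were those of Eif2s3x (0.59), Ckap2 (0.54), Pank3 (0.49), Emid1 (0.42) and Lum (0.40). This pattern and these genes were chosen after their values were seen, and it was not tested.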
